A study of Mus musculus with 6 samples.

Results

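The cytosolic ribosomal protein genes were taken from the gene count table as the rows annotated as protein-coding whose symbols follow the Rpl and Rps naming pattern, together with Rplp0, Rplp1, Rplp2 and Rpsa. Kinase genes of the Rps6k family and rows named as pseudogenes were left out. The rule used no expression value and found 83 of 53278 genes, of which 32 encode proteins of the small (40S) subunit and 51 encode proteins of the large (60S) subunit. RNA was sequenced from type-2 innate lymphoid cells (ILC2s) sorted from the visceral adipose tissue of C57BL/6 mice aged 8 weeks, all of which had received 3 intraperitoneal injections of 1 µg IL-33, an alarmin that activates ILC2s. All cells were cultured with IL-2 (10 ng/mL) and IL-7 (10 ng/mL), and either with DTA-1 (5 µg/mL), an agonistic antibody to the costimulatory receptor GITR, or with its isotype control. Sample titles call the control libraries isotype, while their columns of counts are labelled PBS. The labels give 48 h of culture, and a shorter time also appears in the study's text. Each group had 3 libraries made from 10 ng of RNA, and nothing in the sources used here says whether they came from separate mice or cultures, so that p-values measure only the spread between these libraries.

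Ribosomal proteins assemble with ribosomal RNA into the 2 subunits of the ribosome, the small one reading the mRNA and the large one forming the peptide bond. Their mRNAs are among the most actively regulated at the level of translation, since they begin with a 5′ terminal oligopyrimidine (TOP) tract, through which mTOR signaling and the binding protein LARP1 control whether the mRNA is translated. A change in output of ribosomal protein can therefore occur with no change in mRNA, and the values below are mRNA values only. Activated lymphocytes are known to enlarge their ribosome production as they grow and secrete cytokines, and the question put to these genes was whether GITR engagement changed their mRNA levels in IL-33-activated ILC2s.

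The TOP tract can be seen in the DNA around annotated transcription starts, and the windows below are shown because they hold the sequence feature that ribosomal protein mRNAs are known for. Each window has 30 bases of the RefSeq promoter on its own strand (build GRCm38.p6), 15 before the annotated start and 15 from the start onward, and capitals mark a C followed by at least 4 pyrimidines, including the parts of such runs that begin before or go on past the window. In the first 4 genes such a C lies at the annotated start. Rps6 encodes the 40S substrate of the S6 kinases (chr4:86857353-86857382, minus strand), Rplp2 a protein of the stalk (chr7:141447636-141447665, plus strand), Rps27 a zinc-binding 40S protein (chr3:90213634-90213663, minus strand) and Rps21 a small 40S protein (chr2:180257364-180257393, plus strand).
Rps6: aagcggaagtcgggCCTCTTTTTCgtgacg
Rplp2: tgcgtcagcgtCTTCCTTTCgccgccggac
Rps27: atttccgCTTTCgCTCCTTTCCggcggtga
Rps21: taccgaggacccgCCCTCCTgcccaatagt

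The next 5 windows belong to genes described below with no such C at the annotated start. They are Rps27l (chr9:66946071-66946100, plus strand), the paralog of Rps27, Rpl22l1 (chr3:28805493-28805522, plus strand), the paralog of Rpl22, Rpl39 (chrX:37085208-37085237, minus strand) and its paralog Rpl39l (chr16:10170213-10170242, plus strand), and Rpl13 (chr8:123102335-123102364, plus strand), which had the most counts of all members.
Rps27l: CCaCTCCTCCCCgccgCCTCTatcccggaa
Rpl22l1: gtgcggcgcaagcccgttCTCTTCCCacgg
Rpl39: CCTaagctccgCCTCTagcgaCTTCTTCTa
Rpl39l: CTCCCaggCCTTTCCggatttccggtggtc
Rpl13: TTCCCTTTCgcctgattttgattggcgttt

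RefSeq promoters were matched for 63 of the 83 members. Such a C at an annotated start was present in 13 of the 63 (20.6%), against 3.01% of all 27025 symbols with a promoter. Within 10 bases of a start it was present in 61.9% of the members and 34.4% of all symbols. These shares depend on where the annotation places the start, which for Rplp2 lay 281 bases from the start of the gene in the count table, for Rpl39 180 bases and for Rps27 3 bases. Over the 300 bases from 250 before to 50 after the start, and on both strands, CCGGAAG (the core bound by ETS factors) was found in 41.3% of the members and 9.93% of all symbols. The corresponding shares of AAGATGG (a YY1 core) were 15.9% and 7.28%, and those of TATAAA were 11.1% and 15.7%. A match describes the letters only.

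The libraries held 30569351 to 35131329 counts, so that a count of 0 allows up to 3 counts, or 0.0854 to 0.0981 CPM, for counting error only. Counts were normalized by the TMM method and are given as normalized counts (CPM). The library labelled DTA-1 replicate 1 lay nearer to the isotype control libraries than to the other libraries of its group, with a chi-square per degree of freedom of 9.64 to 11.3 against 27.1 and 28.2, and results are given with and without it. Summed normalized counts of 13 ILC2 genes were 12726 to 13649 in isotype control and 13791 to 18041 in DTA-1, and all 13 were detected. The neutrophil genes S100a8, S100a9 and Retnlg were at 0 in every library, as were Cd8a, Ms4a1, C1qb, Cdh5, Msln and Upk3b. Summed marker levels in isotype control and DTA-1 were 40.9 to 54.1 and 47.6 to 51.3 for T cells, 9.21 to 12.3 and 10.2 to 11.0 for B cells, and 2.65 to 4.76 and 1.22 to 5.02 for macrophages. The same sums were 2.20 to 8.39 and 0 to 3.98 for fibroblasts, 18.4 to 24.4 and 10.6 to 18.3 for endothelial cells, 6.43 to 7.53 and 5.06 to 7.37 for erythroid cells, and at most 0.45 for adipocytes and mesothelial cells.

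Of all counts, 2.83%, 2.38% and 2.55% fell to ribosomal protein genes in the isotype control libraries (replicates 1, 2 and 3), and the DTA-1 libraries gave 2.59%, 2.35% and 2.06%. The share was 2.59% ± 0.224 under the isotype antibody against 2.33% ± 0.266 under DTA-1 (SD, n = 3 each). The groups overlapped, since isotype control replicate 2 lay below DTA-1 replicate 1. DTA-1 minus isotype control was −0.257 percentage points, close in size to the pooled SD of 0.246 between libraries of a group. This difference was −0.386 percentage points when DTA-1 replicate 1 was left out and −0.12 when DTA-1 replicate 3 was.

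**Figure D1:**
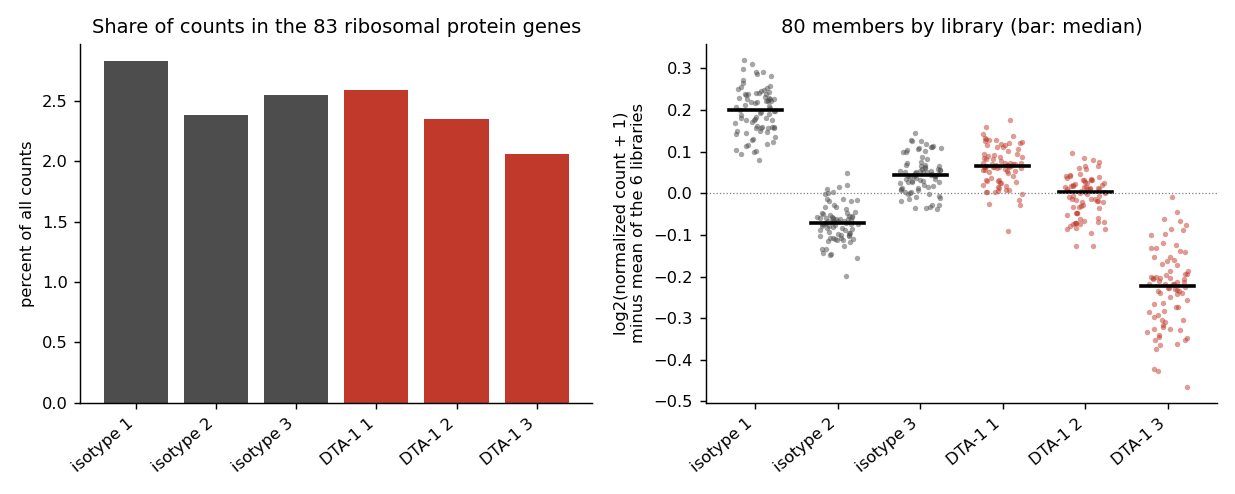
Left, percent of all counts in the 83 ribosomal protein genes in each library (isotype control grey, DTA-1 red). Right, each of 80 members as its log2(normalized count + 1) minus its own mean over the 6 libraries, with the median as a bar, which is highest in isotype control replicate 1 and lowest in DTA-1 replicate 3.

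No ribosomal protein gene met the criteria for differential expression between DTA-1 and isotype control. A gene was called when its change reached 1.5-fold with an adjusted p under 0.05, by the edgeR quasi-likelihood test and the Benjamini-Hochberg method over the 14361 genes that passed the filter on low counts. Of the 83 members 81 passed it, and 0 of them were called, as were 0% of all genes. At an unadjusted p under 0.05 with no fold-change limit the count was also 0 of 81 members, against 7.22% of all genes, and DESeq2's Wald test gave 4 of 82 members at that level, against 4.88% of all genes, and 0 members called, against 0.0792%. The estimates nonetheless leaned one way, with 77 of 81 members below 0, where 51.9% of all genes were below 0. Their median log2 fold change was −0.11 (−7.52%), and the median of all genes was −0.01.

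The interval of nearly every member was narrower than the fold-change limit. In 80 of 81 members the 95% interval lay within 1.5-fold in either direction, and in all 81 it included 0. Standard errors of these 80 members ran from 0.06 to 0.14 on the log2 scale, and estimates from −0.25 to 0.02. The exception was Rpl39l, with 3 to 28 counts per library. Every DTA-1 library lay below every isotype control library in 1 of 81 members, Rpl22l1, while this was so in 6.03% of all genes.

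**Figure D2:**
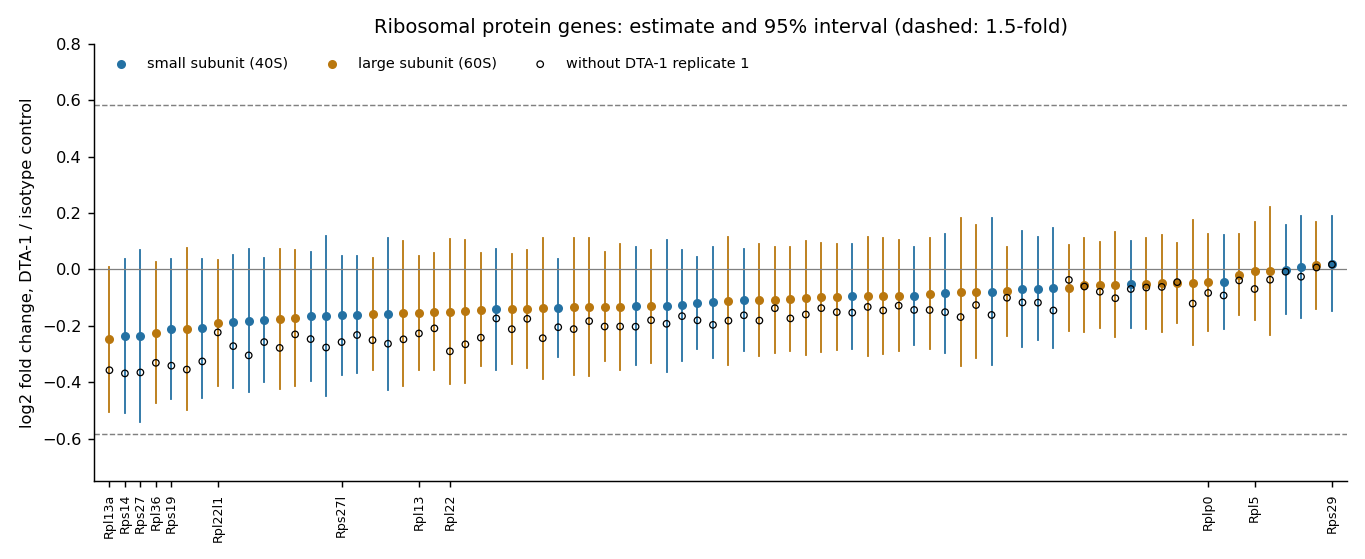
Log2 fold change of DTA-1 over isotype control with its 95% interval for 80 ribosomal protein genes, ordered by estimate and colored by subunit, with the names of 12 genes on the axis and open circles for the estimates without DTA-1 replicate 1. All intervals lie inside the dashed lines at 1.5-fold and include 0, and 77 estimates lie below 0 (Rpl39l, whose interval is far wider, is not drawn).

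The members moved together from library to library, in an order that did not follow the groups. Isotype control replicate 1 held the highest value in 78 of 81 members, as it did in 18.0% of all genes. DTA-1 replicate 3 held the lowest value in 75 of 81, as it did in 20.3% of all genes. Measured as log2(normalized count + 1) minus the mean of the 6 libraries, the median member stood at 0.20, −0.07 and 0.04 across the isotype control libraries in replicate order, and at 0.07, 0.00 and −0.22 across those of DTA-1. Isotype control replicate 2 lay below DTA-1 replicate 1 in 77 of the 80 members other than Rpl39l, and below DTA-1 replicate 2 in 63 of them. The median log2 fold change therefore rested on both end libraries, and was −0.03 without DTA-1 replicate 3 (62 of 81 members below 0) and −0.04 without isotype control replicate 1 (60 of 81). It was −0.17 without isotype control replicate 2, when 10 members had an unadjusted p under 0.05, against 7.33% of all genes, and 0 were called.

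Without the library labelled DTA-1 replicate 1, 78 of 81 members were below 0 and the median was −0.17 (−11.4%). No member was called, while 0.744% of all genes were, and no member had an adjusted p under 0.05 with no fold-change limit, against 1.70% of all genes. An unadjusted p under 0.05 was reached by 24 of 81 members, all lower in DTA-1, and by 6.53% of all genes in that direction. Both remaining DTA-1 libraries lay below every isotype control library in 17 of 81 members and in 16.1% of all genes. The smallest adjusted p of a member was 0.131, for Rps19 (edgeR, range 0.131 to 0.999 over 15 alternatives). DTA-1 replicate 1 was singled out because it lay near the isotype control libraries. Leaving it out favors a difference between groups, so p-values without it, here and below, are description only. Members also moved together across libraries and are not separate results.

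Transcript length moved with the same libraries. Ribosomal protein mRNAs are short, and the other protein-coding genes with short transcripts and at least 50 normalized counts were ordered by library in a like manner. Among 45 other genes with transcripts under 500 bases the median deviation was 0.14 in isotype control replicate 1, −0.09 in isotype control replicate 2 and −0.14 in DTA-1 replicate 3. In the 1610 other genes with transcripts over 3000 bases these values were −0.06, 0.03 and 0.06. The median log2 fold change of these other genes went from −0.08 under 500 bases to 0.04 over 3000 bases. The 20 members under 500 bases had a median of −0.14, and the 12 members of 1000 to 1500 bases had a median of −0.09, against −0.01 in 502 other genes of that length. When each library was corrected for the median deviation of the other genes in each length class, an alternative chosen after these values were seen, the median of the members was −0.09 and that of all genes −0.02, with 75 of 81 members below 0 against 55.7% of all genes. Under it 5 members had an unadjusted p under 0.05, against 8.16% of all genes, and 0 were called.

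**Figure D3:**
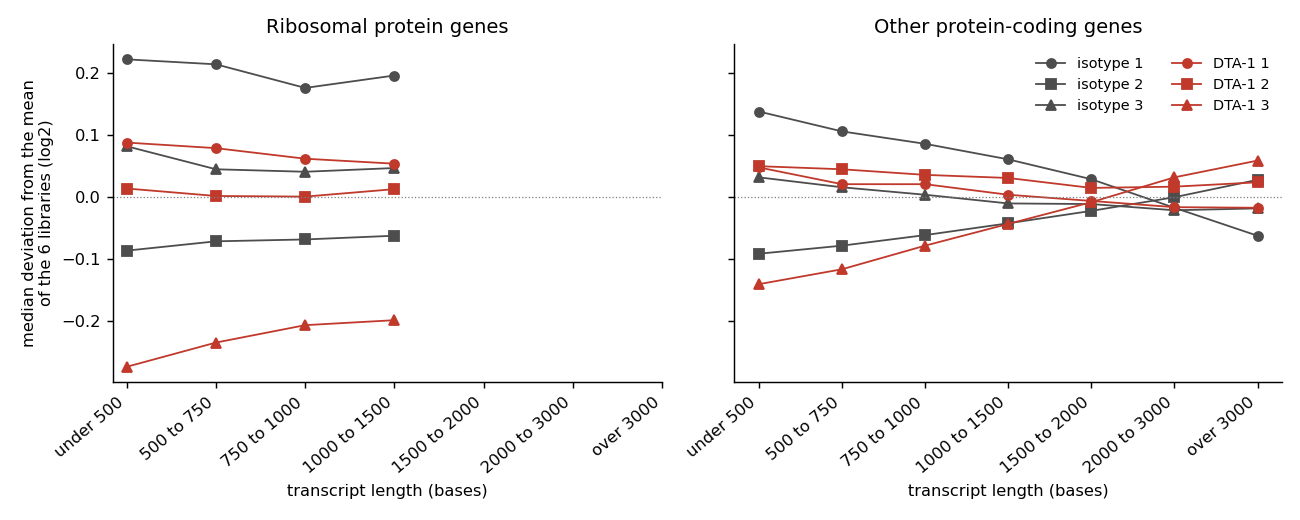
Median deviation of each library from the mean of the 6 libraries (log2) by transcript length, for ribosomal protein genes (left, classes with at least 12 members) and for other protein-coding genes (right), isotype control in grey and DTA-1 in red. Below 1000 bases isotype control replicate 1 is the highest and DTA-1 replicate 3 the lowest line in both panels, and among the other genes the order of these 2 lines is turned over 3000 bases.

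The lowest estimates belonged to Rpl13a, Rps14, Rps27, Rpl36 and Rps19. Rpl13a, a 60S protein that also takes part in the translational silencing of inflammatory mRNAs outside the ribosome (chromosome 7, 45125558 to 45128761), had 311, 240.2 and 273 normalized counts under the isotype antibody against 265, 236 and 193 under DTA-1. Isotype control replicate 2 lay below DTA-1 replicate 1, and the groups overlapped. Its log2 fold change was −0.25 (SE 0.12, edgeR adjusted p = 0.702). It was −0.36 when DTA-1 replicate 1 was left out (edgeR adjusted p = 0.190, range 0.190 to 0.999 over 15 alternatives), and −0.13 when DTA-1 replicate 3 was. The locus overlaps a second protein-coding annotation on its strand, Gm45713, which had a mean of 847 counts beside 8462 for Rpl13a.

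Rps14, a 40S protein whose loss underlies the anemia of the 5q- syndrome, had 525, 422 and 454 normalized counts under the isotype antibody against 466, 405 and 319 under DTA-1. DTA-1 replicate 1 lay above 2 of the isotype control libraries. The log2 fold change of Rps14 was −0.24 (SE 0.12, edgeR adjusted p = 0.732), −0.37 without DTA-1 replicate 1 and −0.10 without DTA-1 replicate 3. Rps19, the gene most often mutated in Diamond-Blackfan anemia (chromosome 7, 24884371 to 24889806), had 964, 772 and 839 normalized counts under the isotype antibody against 869, 726 and 629 under DTA-1. As for Rps14, only DTA-1 replicates 2 and 3 lay below all isotype control libraries. Its log2 fold change was −0.21 (SE 0.11, edgeR adjusted p = 0.733) with all libraries, −0.34 when DTA-1 replicate 1 was left out and −0.11 when DTA-1 replicate 3 was.

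Rpl36, a 60S protein, had 224, 174 and 198 normalized counts under the isotype antibody against 194, 172 and 144 under DTA-1. Its log2 fold change was −0.22 (SE 0.11, edgeR adjusted p = 0.725), −0.33 when DTA-1 replicate 1 was left out and −0.12 when DTA-1 replicate 3 was. DTA-1 replicates 2 and 3 lay below all isotype control libraries, replicate 2 by little. Rps27 had 278, 211 and 244 normalized counts under the isotype antibody against 243, 218 and 161 under DTA-1, so that 1 DTA-1 library lay below the isotype control range. The log2 fold change of Rps27 was −0.24 (SE 0.14, edgeR adjusted p = 0.743), −0.37 without DTA-1 replicate 1 and −0.08 without DTA-1 replicate 3.

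**Figure D4:**
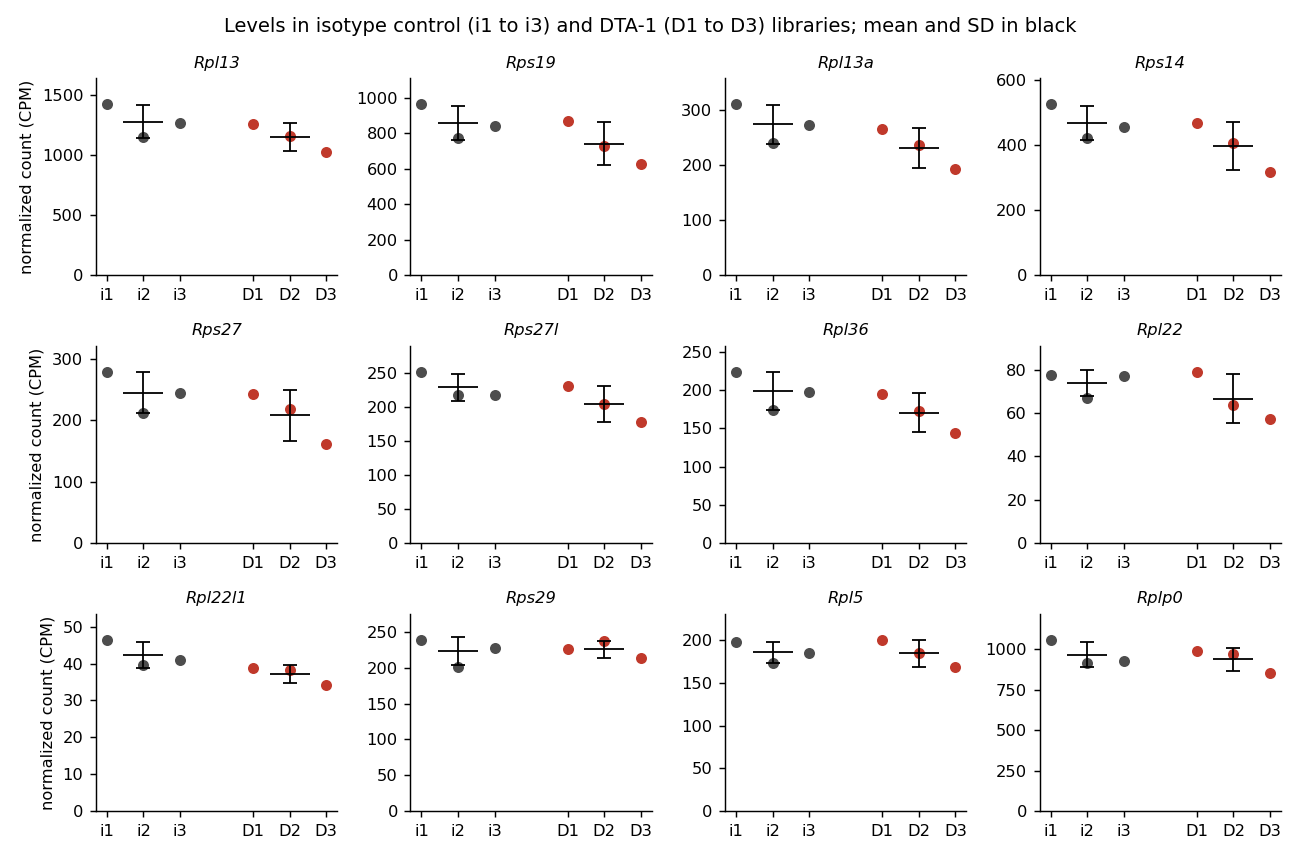
Normalized counts (CPM) of 12 ribosomal protein genes in the 3 isotype control libraries (grey, i1 to i3) and the 3 DTA-1 libraries (red, D1 to D3), with the mean and SD of each group in black. Isotype control replicate 1 is the highest point in all panels but Rpl22 and Rpl5, DTA-1 replicate 3 is the lowest in all but Rps29, and only in Rpl22l1 do the groups not overlap.

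At the other end, 4 members had estimates above 0. Rps29, a zinc-binding 40S protein (chromosome 12, 69157722 to 69159186), had 239, 201 and 228 normalized counts under the isotype antibody against 227, 238 and 214 under DTA-1. Its log2 fold change was 0.02 with a 95% interval of −0.15 to 0.19, and the lowest library was isotype control replicate 2. Rpl21, a 60S protein, had 195 ± 15.8 and 197 ± 2.34 normalized counts, and Rps13, a 40S protein, 180.2 ± 14.1 and 181 ± 15.5 (isotype control and DTA-1, SD, n = 3 each). These 3 genes were below 0 when libraries were scaled by total counts. Rpl39l, a copy of Rpl39 known for its expression in the testis, had 14, 12 and 13 counts under the isotype antibody against 28, 21 and 3 under DTA-1. The DTA-1 libraries lay on both sides of the isotype control libraries, and the 95% interval of its log2 fold change ran from −0.98 to 2.16.

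Members of the small and the large subunit were compared as groups. Among the 32 small subunit genes 30 were below 0 with a median log2 fold change of −0.13, and among the 49 tested large subunit genes 47 were below 0 with a median of −0.10. The small subunit genes held 39.92%, 39.93% and 39.86% of member counts across the isotype control libraries, and 39.99%, 39.36% and 38.94% across those of DTA-1. The library labelled DTA-1 replicate 1 lay above the isotype control libraries and the other DTA-1 libraries below them. The small subunit genes had shorter transcripts, with a median of 638.5 bases against 773.5, and the part of length in this share was not tested. The stalk proteins Rplp0, Rplp1 and Rplp2, which recruit elongation factors to the ribosome, had log2 fold changes of −0.04, −0.09 and −0.05. For Rplp0 (chromosome 5, 115559467 to 115563727) the normalized counts were 1059, 914 and 929 under the isotype antibody against 987, 972 and 854 under DTA-1, with 2 DTA-1 libraries inside the isotype control range.

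Several ribosomal proteins are known for roles in signaling. Rps6, the S6 kinase substrate (chromosome 4, 86854660 to 86857412), had 786, 722 and 721 normalized counts under the isotype antibody against 742, 689 and 622 under DTA-1, and a log2 fold change of −0.12 (95% interval −0.28 to 0.04). Rps3, which can bind the NF-κB subunit p65 in the nucleus, had 529 ± 45.9 and 473 ± 58.8 normalized counts (isotype control and DTA-1, SD, n = 3 each), and a log2 fold change of −0.16 (95% interval −0.37 to 0.05). In both genes the SD of DTA-1 was as large as the difference between group means, and DTA-1 replicate 1 lay inside the isotype control range. Rpl5 and Rpl11, which with 5S ribosomal RNA bind the p53 regulator MDM2, had log2 fold changes of −0.01 and −0.10. Normalized counts of Rpl5 were 198, 174 and 185 under the isotype antibody against 201, 186 and 169 under DTA-1, and the locus overlaps Fam69a on the other strand, which had a mean of 2855 counts beside 6176. Rpsa, also known as a laminin receptor, had a log2 fold change of −0.12, Rps27a, which is made as a fusion with ubiquitin, one of −0.07, and Rpl41, a very short basic peptide, one of −0.16, none with an edgeR adjusted p below 0.805.

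Paralog pairs were read with care, since near-identical copies share reads. Rpl22l1 is the paralog of Rpl22, and its mRNA is known to be repressed by the Rpl22 protein. Rpl22 (chromosome 4, 152325742 to 152334071) had 77.4, 67.0 and 77.2 normalized counts under the isotype antibody against 79.0, 63.8 and 57.1 under DTA-1. Rpl22l1 (chromosome 3, 28805436 to 28807424) had 46.5, 39.6 and 40.9 under the isotype antibody against 38.8, 38.2 and 34.3 under DTA-1. The log2 fold changes were −0.15 (SE 0.12) for Rpl22 and −0.19 (SE 0.10) for Rpl22l1, with edgeR adjusted p of 0.819 and 0.733. The ratio of Rpl22 to Rpl22l1 was 1.75 ± 0.12 under the isotype antibody against 1.79 ± 0.213 under DTA-1 (SD, n = 3 each), a difference smaller than the spread. Rps27l, known as a p53 target, had 251, 217 and 217 normalized counts under the isotype antibody against 230, 205 and 178 under DTA-1, and the ratio of Rps27 to Rps27l was 1.07 ± 0.084 and 1.01 ± 0.089. Rpl7 and Rpl7l1 had log2 fold changes of −0.09 and −0.07, Rpl3 one of −0.06, Rpl10 one of −0.02, Rpl39 one of −0.08, Rps4x one of −0.04 and Rpl36a one of −0.17. Rpl10l, a testis copy of Rpl10, was at 0 counts in every library, and Rpl3l, the striated muscle copy of Rpl3, had 1 count in 1 isotype control library.

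Levels were compared between genes as isotype control normalized counts per kilobase of transcript. Over the 80 members other than Rpl39l the median was 358, the 10th and 90th percentiles differed 4.83-fold, and the range was 64.3 to 1644. Rpl13, a 60S protein (chromosome 8, 123102350 to 123105244), was at 1644 and Rps19 at 1356, followed by Rpl32 at 1219. Low values included those of Rpl22l1 at 80.6, Rpl5 at 90.9 and Rps21 at 121. Rps20 had the lowest value, but its annotated transcript of 3706 bases is far longer than its coding length of 357 bases, so its level per kilobase is uncertain. The transcript of Rpl5, 2045 bases with a coding length of 891 bases, leaves a like uncertainty. By normalized counts not divided by length, Rpl13 had 1282 ± 139 under the isotype antibody against 1152 ± 117 under DTA-1, and Rpl4, which lines the exit tunnel, 1134 ± 57.2 and 1097 ± 51.7 (SD, n = 3 each). Their log2 fold changes were −0.15 and −0.05. Rps12 and Rps21, which had few counts for this family, had 73.2 ± 11.2 and 65.4 ± 9.71, and 47.8 ± 4.74 and 45.3 ± 6.16, with log2 fold changes of −0.16 and −0.08. Only 3 members were among the 100 genes with the highest normalized counts.

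Pseudogene copies took part of the reads. Rows named as pseudogenes of a member numbered 286 for 59 members, and only 4 members had whole-number values (within 0.01) in all 6 libraries, the others having fractional counts. These named copies held a median of 0.196% of a member's own counts and at most 12.2%, in Rpl39, and 15 members had over 5%. Copies under other symbols were not counted, so these shares are lower limits. Adding the named copies moved no log2 fold change of the 80 members by more than 0.02. Several members also overlap a gene on the other strand, such as Rpl28 with Ube2s (means of 4243 and 6053 counts), Rpl35 with Arpc5l (10217 and 3864), Rps25 with Trappc4 (7440 and 3512) and Rps18 with Vps52 (16040 and 3388). Whether strand was used in counting is not given in the sources used here, and reads of such pairs cannot then be told apart.

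Medians split by sequence feature lay close together, and were not tested. The median log2 fold change was −0.13 in the 13 members with a TOP tract at an annotated start and −0.13 in the 47 tested members without one. With the tract within 10 bases of a start, the median was −0.14 in 36 members, against −0.10 in 24 without. It was −0.11 in 25 members with CCGGAAG and −0.14 in 35 without, and −0.14 in 10 with AAGATGG and −0.11 in 50 without. Fold change and transcript length had a Spearman rho of 0.213 over 80 members and of −0.01 when DTA-1 replicate 3 was left out, a description over genes that share libraries.

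Other genes of ribosome production were given by list, and 0 genes were called in any list with all 6 libraries. Rpl36al, a ribosomal protein gene outside the naming rule and the paralog of Rpl36a, was at 331, 286 and 316 normalized counts under the isotype antibody against 315, 375 and 307 under DTA-1 (log2 fold change 0.10, SE 0.09). The 78 mitochondrial ribosomal protein genes had a median of −0.03 with 48 below 0, and DTA-1 replicate 3 was the lowest library in 44 of them. This median turned to 0.01 when either DTA-1 replicate 3 or isotype control replicate 1 was left out. Mrpl32, a mitochondrial large subunit protein, went the other way, with 58.8, 51.9 and 49.8 normalized counts under the isotype antibody against 54.0, 92.3 and 77.1 under DTA-1. DTA-1 replicate 1 lay among the isotype control libraries. Its log2 fold change was 0.48 (SE 0.16, edgeR adjusted p = 0.627). Leaving out DTA-1 replicate 1 gave 0.66 (edgeR adjusted p = 0.0142, range 0.0142 to 0.999 over 15 alternatives), and Mrpl32 was the only list gene called there.

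Translation factors and other genes of TOP mRNAs had a median log2 fold change of −0.02 with 15 of 22 below 0, and the snoRNA host genes with TOP tracts a median of −0.18 with 6 of 7 below 0. The first of these medians turned to 0.03 without DTA-1 replicate 3 and to 0.02 without isotype control replicate 1. The snoRNA host genes had a median SE of 0.19, and their smallest edgeR adjusted p was 0.748. DTA-1 replicate 3 was the lowest library in 2 of these 7 genes. Of the TOP mRNA genes, Hnrnpa1, an RNA-binding protein gene, had the smallest p (log2 fold change 0.20, SE 0.07, edgeR adjusted p = 0.635). Next by p was Eif3l, a subunit of an initiation factor (0.15, SE 0.06, edgeR adjusted p = 0.657). Both lay above 0, while Eif4a2, which followed by p, lay below it (−0.14, SE 0.08, edgeR adjusted p = 0.738). Gas5, a snoRNA host of the latter list, had 114, 111 and 123 normalized counts under the isotype antibody against 122, 100.2 and 89.1 under DTA-1. Ribosome biogenesis factors had a median of 0.04 with 29 of 42 above 0, and a median of −0.0017 without DTA-1 replicate 3. Among these, Ncl, which encodes nucleolin, had 483, 490 and 491 normalized counts under the isotype antibody against 520, 566 and 571 under DTA-1, so that every DTA-1 library lay above every isotype control library, as in 5.26% of all genes (log2 fold change 0.18, SE 0.06, edgeR adjusted p = 0.632). Nolc1, a nucleolar chaperone, had a log2 fold change of 0.26 (SE 0.09, edgeR adjusted p = 0.627). Utp15, a factor of small subunit processing, had one of −0.27 (SE 0.11, edgeR adjusted p = 0.655). RNA polymerase I genes had a median of −0.04 (9 of 14 below 0), ribosomal protein chaperones 0.07 (4 of 14 below 0) and ribosome quality control genes 0.05 (3 of 8 below 0). The last of these was 0.01 without isotype control replicate 1.

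Of the 13 controllers of TOP mRNA translation and ribosome production 9 were above 0, with a median of 0.05. This median was 0.03 without DTA-1 replicate 3 and 0.06 without isotype control replicate 1. By transcript length alone, medians of other protein-coding genes went from −0.08 under 500 bases to 0.04 over 3000 bases. The part of length in the medians of these lists was not tested. Larp1, whose protein binds TOP mRNAs, had 209, 208 and 230.0 normalized counts under the isotype antibody against 216, 286 and 319 under DTA-1. DTA-1 replicates 2 and 3 lay above all isotype control libraries and DTA-1 replicate 1 among them. The log2 fold change of Larp1 was 0.34 (SE 0.12, edgeR adjusted p = 0.632). Leaving out DTA-1 replicate 1 gave 0.49 (edgeR adjusted p = 0.0103, range 0.0103 to 0.999 over 15 alternatives), which is under the 1.5-fold limit. Myc encodes a transcription factor that drives ribosome production. Its normalized counts were 127, 134 and 136 under the isotype antibody against 144, 151 and 160 under DTA-1. Every DTA-1 library lay above every isotype control library, as in 5.26% of all genes. The log2 fold change of Myc was 0.19 (SE 0.07, edgeR adjusted p = 0.632). Leaving out DTA-1 replicate 1 gave an edgeR adjusted p of 0.151 (range 0.151 to 0.999 over 15 alternatives). Rptor, which encodes the raptor subunit of mTOR complex 1, had a log2 fold change of −0.20 (SE 0.10, edgeR adjusted p = 0.702).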

How the data were processed

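RNA-seq of ILC2s cultured with DTA-1 or isotype control was analysed, with 3 libraries per group. Reads were aligned and assigned to genes by the authors in the Partek software, who deposited expected counts, which are unnormalized estimates and need not be whole. The submitters' processing notes also name STAR 2.5.3a, bcl2fastq 2.17.1.14 and the mm10 build. The annotation, strand setting and handling of reads with several matches are not given in the sources used here. Of 49721 symbols shared with GENCODE mouse release 21 (GRCm38), 47717 had the same start and end. Transcript length is that of the shortest complete protein-coding transcript in the basic set of that release. Transcripts tagged as consensus coding sequences were preferred. The longest transcript was used where a gene had no complete one.

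Expected counts were rounded. Genes were filtered with filterByExpr, normalized by TMM and fitted with edgeR 4.0.16 (robust quasi-likelihood F test, R 4.3.3), with all 6 libraries and no covariate. Adjusted p-values of this fit cover all 14361 genes. An alternative with another filter or set of libraries covers its own genes, which were 14911 without DTA-1 replicate 1. Genes were called at an adjusted p under 0.05 with a 1.5-fold limit. An exact permutation test of 3 libraries against 3 cannot go below 0.10 (two-sided), and none was run. The fit was tested on simulated data. Alternatives were DESeq2 1.42.0, other scalings and filters, the replicate number as a block, pseudogene copies added, each library left out, and, added after the data were seen, a correction by length class and other scalings without DTA-1 replicate 1.

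Genes named are the 5 members with the highest and the 5 with the lowest mean among those tested, the 5 lowest and up to 5 highest estimates, the 5 smallest p, paralog pairs, and a list of members with known roles. Genes of other lists are named when called or among the 3 smallest p of their list. Some genes that these rules pick are not reported here. The members and lists were chosen with earlier results of these data known. Overlapping genes, Rpl32, Rps18, Rps20, Rps25, Rpl28, Rpl35 and Rpl31 were named after their values were seen. Summaries used pandas 2.3.3 and matplotlib 3.10.9 (Python 3.11.15).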

Additional observations from a re-analysis of the deposited data

Results flagged for a closer look

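Signal was present in 6 rows outside the comparisons, whose symbols follow the ribosomal protein naming pattern but which are annotated as processed pseudogenes. Each had more than 3 counts in every library, the limit that a count of 0 allows. The mean count over the 6 libraries was 494.3 for Rps4l, 418.4 for Rps3a2, 103.4 for Rpl6l, 92.8 for Rps12l1, 26.6 for Rps3a3 and 13.3 for Rpl32l. Rps4l, the only one annotated as transcribed, had whole counts of 533, 470.0 and 485 under the isotype antibody against 451, 510.0 and 517 under DTA-1, with a log2 fold change of 0.16 (SE 0.13, edgeR adjusted p = 0.832). The other 5 had fractional counts. Groups of 3 libraries are too small for a test of a single library standing apart within its group.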

How the results depend on the processing

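The number of ribosomal protein genes called was 0 under every alternative run, and also 0 by an adjusted p with no fold-change limit. Their median log2 fold change stayed below 0, between −0.23 (total counts, DTA-1 replicate 1 left out) and −0.03 (DTA-1 replicate 3 left out). The pooled SD between libraries (0.144) was larger than the median of −0.11 itself, so a move smaller than this SD does not show stability. With 1 library left out the median ran from −0.17 to −0.03. The share of counts in DTA-1 minus isotype control ran from −0.386 to −0.12 percentage points. Same-numbered libraries did not deviate together (r = −0.007, −0.003 and 0.02), so the labels' numbers were not taken as pairs, and with the replicate block the median was −0.11 with 8 members (9.88%) at an unadjusted p under 0.05, against 7.25% of all genes, and 0 called. Of 34 named members tested, 12 with estimates near 0 changed sign in at least 1 setting. These came to 26 sign changes, counted over genes and settings together. With total counts the log2 fold change was −0.021 for Rpl21, −0.028 for Rps13 and −0.017 for Rps29. With 1 library left out, it ran from −0.057 to 0.033 for Rpl10, from −0.034 to 0.085 for Rpl21, from −0.089 to 0.0044 for Rpl3, from −0.17 to 0.049 for Rpl39, from −0.069 to 0.055 for Rpl5, from −0.084 to 0.029 for Rplp0, from −0.12 to 0.047 for Rplp2, from −0.039 to 0.078 for Rps13, from −0.16 to 0.027 for Rps21, from −0.15 to 0.028 for Rps27a, from −0.049 to 0.078 for Rps29 and from −0.097 to 0.014 for Rps4x. Sign changes by leaving out isotype control replicate 1 or DTA-1 replicate 3 were all from below to above 0. At least 1000 counts were present in every library for 80 members.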
